A study of Mus musculus with 4 samples.

Results

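Fatty acid oxidation and the peroxisome were followed through 36 genes, taken as the rows of their symbols among the 25567 genes of the tables. Of these, 20 act in mitochondrial oxidation, 13 belong to the peroxisome and 3 are regulators that switch such genes on. All 36 had a row in each of the 4 count tables, and all 36 entered the fit across libraries.

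Long-chain fatty acids enter the mitochondrion as carnitine esters and are then shortened step by step by dehydrogenases, hydratases and thiolases, whose electrons pass to the respiratory chain through electron transfer flavoprotein. Peroxisomes shorten very long and branched chains with their own oxidases, hydratases and thiolases, and take up these enzymes through import receptors of the PEX family. In the brain, neurons are known to oxidise little fatty acid, whereas glia and dividing progenitors do so more readily.

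Single nuclei of the adult mouse hippocampus were sorted into wells, and their RNA was read along its whole length by Smart-seq2, which uses no molecular identifiers. The 4 groups were EdU+ Fasn-R1812W, EdU+ WT, NeuN+ Fasn-R1812W and NeuN+ WT, all from mice aged 8.5 months. Fasn-R1812W is an amino acid change in the synthase that builds palmitate, and the question was how it bears on hippocampal neurons and on recently divided cells. EdU, a thymidine analogue that marks newly made DNA, was injected at 100 mg per kg in both EdU+ groups, with 2 injections a day over 3 days and collection on day 4. NeuN+ nuclei were stained for NeuN, a nuclear protein of neurons. Each group had 1 library, and the number of animals behind a library is not given in the sources used here.

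The libraries held 36368990 to 96597804 reads over 384 wells each. Nuclei with at least 1000 genes and 50000 reads were kept, which left 348 EdU+ Fasn-R1812W, 167 EdU+ WT, 301 NeuN+ Fasn-R1812W and 314 NeuN+ WT nuclei. The EdU+ WT library stood apart, with a median of 1298 genes in its kept nuclei against 3006 to 4417 in the other libraries, and a stricter filter of 2000 genes and 100000 reads left 5 of its nuclei. Levels are in CPM: reads were summed over the kept nuclei and scaled so that nuclear-encoded genes of a library total 1000000. Intervals are 95% and cover counting error only, because PCR copies are not independent molecules. Rbfox3, which encodes NeuN, stood at 24.7 and 41.5 CPM in EdU+ Fasn-R1812W and WT nuclei, against 171 and 151 CPM in NeuN+ Fasn-R1812W and WT nuclei. Pdgfra, the receptor of oligodendrocyte precursors, stood at 1672 and 2275 CPM in the EdU+ libraries, against 10.2 and 0 CPM in the NeuN+ libraries. Fasn was read in every library, at 31.7 to 167 CPM, but a substitution cannot be seen in a count, so the genotype labels were not tested.

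Reads of many members came from few nuclei, which limits their levels. A single nucleus held over 25% of a member's reads for 20 of 36 members in EdU+ Fasn-R1812W, 26 of 35 in EdU+ WT, 16 of 35 in NeuN+ Fasn-R1812W and 12 of 35 in NeuN+ WT. The median share of the leading nucleus was 26.6%, 40.7%, 21.4% and 16.5% in the same libraries. Shares of nuclei with a read are therefore given beside some levels, after every nucleus was thinned to 50000 reads. Thinning evens the reads of a nucleus but not its number of genes, which was lowest in EdU+ WT. The shares are a description, and no order of libraries is read from them.

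Per length, Cpt1c had the highest mean over the libraries. This brain-enriched relative of the carnitine shuttle enzymes, which resides in the endoplasmic reticulum and has little catalytic activity, averaged 35.3 CPM per kb of annotated exon over the 4 libraries. Etfb, a subunit of electron transfer flavoprotein, followed among mitochondrial members with 27.9 CPM per kb, and Acadvl, the very-long-chain acyl-CoA dehydrogenase, with 15.7 CPM per kb. The peroxisomal order was led by Abcd3, a transporter of the peroxisomal membrane, at 25.8 CPM per kb, then Acaa1a, a thiolase, at 19.1 CPM per kb and Pex5, the receptor that imports peroxisomal enzymes, at 15.3 CPM per kb. The lowest were Acads, the short-chain dehydrogenase, at 0.609 CPM per kb and Cpt1b, the muscle isoform of the shuttle, at 0.628 CPM per kb. The order differed between gates. In EdU+ nuclei Abcd3 led at 37.6 CPM per kb, before Etfb at 34.5 and Cpt1c at 31.7 CPM per kb. In NeuN+ nuclei Cpt1c led at 38.8 CPM per kb, before Pex5l, a relative of Pex5, at 25.6 CPM per kb, and Abcd3 stood at 14.0 CPM per kb. Etfb ranged from 15.9 to 53.1 CPM per kb over the libraries and so spanned the means of Cpt1c and Abcd3. Exons of another gene cover 53% of the exon bases of Etfb on its own strand, 42.9% of those of Acadvl on the opposite strand and 41.1% of those of Pex11g on the opposite strand. Reads of these members and their partners could not be told apart without the strand setting, and Acaa1a has a close copy, Acaa1b, that may share its reads.

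**Figure D1:**
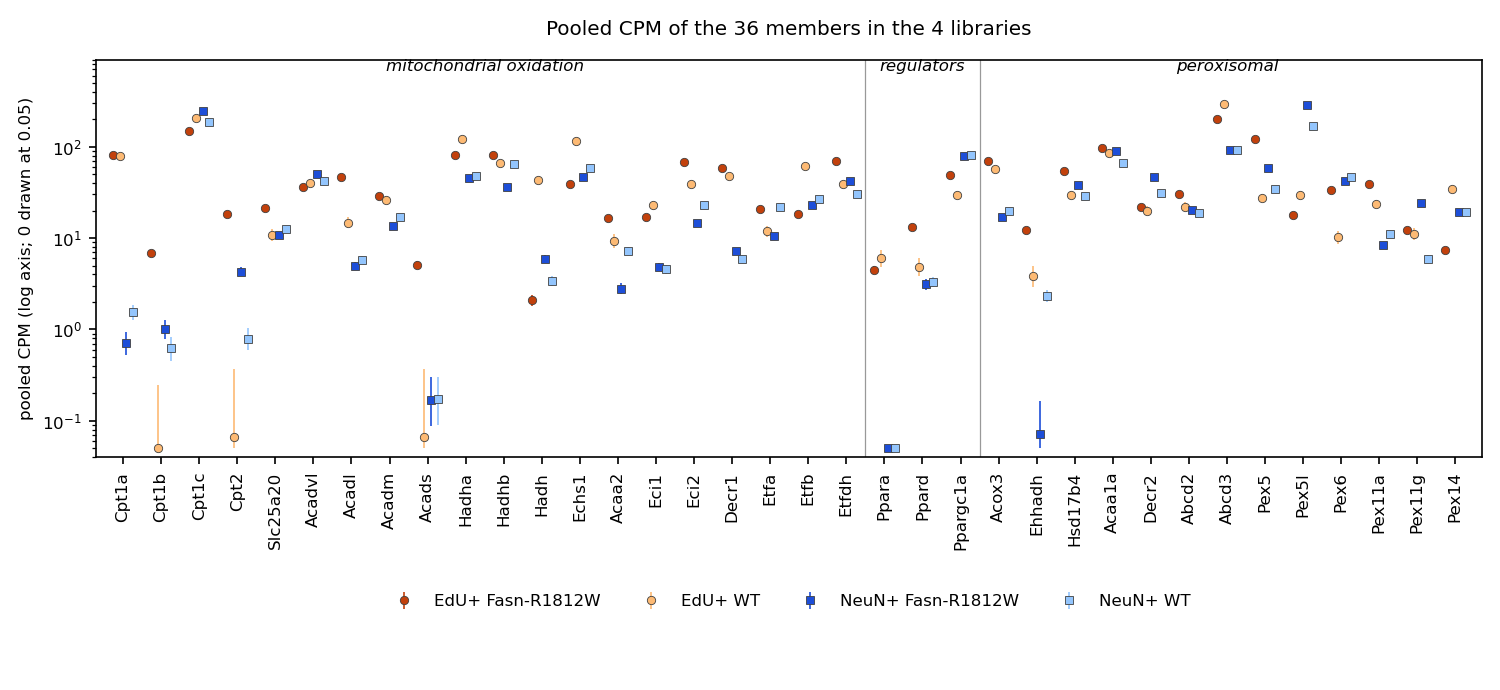
Pooled CPM of each member (log axis) in the 4 libraries, mitochondrial, regulator and peroxisomal members from left to right; bars are exact Poisson 95% intervals and 0 is drawn at 0.05. Cpt1a lies at 80.3 and 79.2 CPM in the EdU+ libraries and at 0.712 and 1.54 CPM in the NeuN+ libraries, and Pex5l shows the opposite order.

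Of the carnitine shuttle genes, Cpt1a separated the gates. Cpt1a (ENSMUSG00000024900, plus strand, chr19:3322334-3385733 of GRCm38) encodes the liver-type enzyme of the outer mitochondrial membrane that sets the rate of entry. It stood at 80.3 CPM (78.5 to 82.1) in EdU+ Fasn-R1812W and 79.2 CPM (74.8 to 83.9) in EdU+ WT. In NeuN+ Fasn-R1812W and NeuN+ WT it stood at 0.712 CPM (0.529 to 0.939) and 1.54 CPM (1.26 to 1.86). Both EdU+ libraries lay far above both NeuN+ libraries. The fitted log2 difference of EdU+ over NeuN+ was 6.21 (adjusted p = 0.0125, edgeR quasi-likelihood test), and DESeq2 gave 6.23 with a standard error of 0.714. Thinned reads of Cpt1a were found in 38 of 348 EdU+ Fasn-R1812W and 12 of 167 EdU+ WT nuclei, against 3 of 301 NeuN+ Fasn-R1812W and 1 of 314 NeuN+ WT nuclei. Of its EdU+ Fasn-R1812W reads, 50.6% came from 1 nucleus. With the leading nucleus of each library left out, the EdU+ levels were 39.6 and 56.7 CPM in Fasn-R1812W and WT, against 0.399 and 0.0144 CPM in NeuN+ Fasn-R1812W and WT, and the fitted difference was 8.86 (adjusted p = 0.0124, edgeR).

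Cpt1c (ENSMUSG00000007783, minus strand, chr7:44959372-44974851) did not separate the gates. It stood at 148 CPM in EdU+ Fasn-R1812W and 207 CPM in EdU+ WT, against 248 CPM in NeuN+ Fasn-R1812W and 187 CPM in NeuN+ WT, with an adjusted p of 0.670 in edgeR. The ratio of Cpt1c to Cpt1a was 1.85 in EdU+ Fasn-R1812W and 2.62 in EdU+ WT, against 348 in NeuN+ Fasn-R1812W and 122 in NeuN+ WT. In the NeuN+ libraries, 202 of 301 Fasn-R1812W and 205 of 314 WT nuclei held thinned reads of Cpt1c without any of Cpt1a. The windows from 250 bases before to 50 bases after the RefSeq start of both genes follow with that of Hadhb, to set isoforms of unlike gate pattern side by side with a gene that shares its window with a neighbour. They are RefSeq sequences of build GRCm38.p6, written in the direction of the gene at chr19:3323051-3323350 (plus strand), chr7:44974802-44975101 (minus strand) and chr5:30155003-30155302 (plus strand). The RefSeq start of Cpt1a used here lies 967 bases downstream of the gene start given above. Capitals mark the Sp1 GC box (GGGCGG on either strand).
Cpt1a: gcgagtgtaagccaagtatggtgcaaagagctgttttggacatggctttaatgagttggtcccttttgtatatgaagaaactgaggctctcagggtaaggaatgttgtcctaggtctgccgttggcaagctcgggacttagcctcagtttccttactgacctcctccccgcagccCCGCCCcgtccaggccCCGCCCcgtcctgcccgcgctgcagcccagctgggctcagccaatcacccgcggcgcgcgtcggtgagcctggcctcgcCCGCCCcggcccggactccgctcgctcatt
Cpt1c: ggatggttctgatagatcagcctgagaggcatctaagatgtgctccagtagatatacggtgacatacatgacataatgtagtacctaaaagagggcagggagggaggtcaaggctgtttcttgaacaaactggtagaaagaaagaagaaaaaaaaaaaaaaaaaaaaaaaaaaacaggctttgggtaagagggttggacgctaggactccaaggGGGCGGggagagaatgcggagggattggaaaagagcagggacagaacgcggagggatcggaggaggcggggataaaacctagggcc
Hadhb: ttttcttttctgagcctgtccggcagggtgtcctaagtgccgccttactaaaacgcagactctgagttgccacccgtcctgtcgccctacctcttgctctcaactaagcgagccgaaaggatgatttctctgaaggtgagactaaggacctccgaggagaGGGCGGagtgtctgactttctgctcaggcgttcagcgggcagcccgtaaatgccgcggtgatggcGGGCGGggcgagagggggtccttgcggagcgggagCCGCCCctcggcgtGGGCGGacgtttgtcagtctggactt
The Cpt1a window held 3 GC boxes and 22 CpG dinucleotides, the Cpt1c window 1 GC box and 8 CpG dinucleotides, and the Hadhb window 4 GC boxes and 24 CpG dinucleotides. Over all 32851 windows the median was 7 CpG dinucleotides.

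Windows were found for 30 of 36 members, 33 windows in all, with a median of 17 CpG dinucleotides. The GC box was in 26 of these 33 windows, or 78.8%, against 35.7% of all windows. The NRF1 element (GCGCNT followed by GCGC), named after nuclear respiratory factor, was in 5 windows, those of Abcd3, Etfb, Etfdh, Pex11g and Ppara, or 15.2%, against 4.6% of all windows. The cyclic AMP element TGACGTCA was in the window of Pex11g alone, against 1.79% of all windows. Neither the PPAR response element (AGGTCA, any base and AGGTCA again) nor the ERR element (TNAAGGTCA) was found in these 33 windows, and they were in 0.0396% and 1.28% of all windows. Both strands were searched. The ERR and PPAR elements share the letters AGGTCA, and the other motifs share none of this length.

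Other shuttle members were low. Cpt2, the inner-membrane enzyme that frees the acyl chain, stood at 18.2 CPM in EdU+ Fasn-R1812W and 0.0665 CPM in EdU+ WT, against 4.27 CPM in NeuN+ Fasn-R1812W and 0.791 CPM in NeuN+ WT. Its EdU+ WT value was 1 read. Cpt1b stood at 6.84 CPM in EdU+ Fasn-R1812W with no read in EdU+ WT, against 1.01 CPM in NeuN+ Fasn-R1812W and 0.619 CPM in NeuN+ WT. Slc25a20, the carnitine-acylcarnitine carrier, stood at 21.4 and 10.8 CPM in EdU+ Fasn-R1812W and WT, against 10.9 and 12.5 CPM in NeuN+ Fasn-R1812W and WT. The gates overlapped for all 3.

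Dehydrogenases of different chain length did not share a pattern. Acadl, the long-chain enzyme, stood at 46.3 and 14.8 CPM in EdU+ Fasn-R1812W and WT, against 4.93 and 5.71 CPM in NeuN+ Fasn-R1812W and WT. The medium-chain Acadm was also higher in both EdU+ libraries, at 28.6 and 25.9 CPM in Fasn-R1812W and WT, against 13.5 and 17.1 CPM in NeuN+ Fasn-R1812W and WT. Acadvl ran the other way, at 36.5 and 40.0 CPM in EdU+ Fasn-R1812W and WT, against 50.5 and 42 CPM in NeuN+ Fasn-R1812W and WT. None of the 3 differences passed in edgeR, with adjusted p of 0.252 for Acadl, 0.620 for Acadm and 0.819 for Acadvl. With a relaxed nucleus filter (300 genes and 20000 reads) Acadm stood at 16.7 CPM in EdU+ WT and 16.9 CPM in NeuN+ WT, so its gates overlapped.

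Hadha and Hadhb, the subunits of the trifunctional protein that runs the last steps on long chains, lie head to head on chromosome 5. Their starts are 273 bases apart and their windows share 228 bases. Hadha stood at 80.4 and 122 CPM in EdU+ Fasn-R1812W and WT, against 45.5 and 47.2 CPM in NeuN+ Fasn-R1812W and WT. Hadhb stood at 81.0 and 66.7 CPM in EdU+ Fasn-R1812W and WT, against 35.8 and 65.0 CPM in NeuN+ Fasn-R1812W and WT. The ratio of Hadhb to Hadha was thus 1.01 in EdU+ Fasn-R1812W and 0.547 in EdU+ WT, against 0.787 in NeuN+ Fasn-R1812W and 1.38 in NeuN+ WT. A single nucleus held 44.5% of the Hadha reads in EdU+ WT. In thinned NeuN+ nuclei, reads of both were found in 36 of 301 Fasn-R1812W and 28 of 314 WT nuclei, and reads of Hadha alone in 61 and 62.

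Among enzymes that handle double bonds, Decr1, the mitochondrial dienoyl-CoA reductase, had the widest gap. It stood at 58.3 and 47.2 CPM in EdU+ Fasn-R1812W and WT, against 7.18 and 5.91 CPM in NeuN+ Fasn-R1812W and WT. The fitted log2 difference was 2.97 with an adjusted p of 0.0597 in edgeR, so it did not pass, whereas DESeq2 gave 2.99 with a standard error of 0.757 and an adjusted p of 0.000698. The enoyl-CoA isomerases Eci1 and Eci2 also lay higher in both EdU+ libraries, with fitted differences of 2.03 and 1.44 that did not pass in edgeR (adjusted p = 0.347 and 0.303). The thiolase Acaa2 had 1.42 (adjusted p = 0.656, edgeR).

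Electron transfer genes did not follow the gates. Etfa, the partner subunit of Etfb, stood at 20.8 and 11.8 CPM in EdU+ Fasn-R1812W and WT, against 10.6 and 21.8 CPM in NeuN+ Fasn-R1812W and WT. Etfdh, which passes the electrons on to ubiquinone, stood at 70.1 and 39.0 CPM in EdU+ Fasn-R1812W and WT, against 42.3 and 30.3 CPM in NeuN+ Fasn-R1812W and WT. The groups overlapped for both, and for Etfb.

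Of the 20 mitochondrial members, 9 were higher in both EdU+ libraries than in both NeuN+ libraries, 1 was lower and 10 overlapped. Over all 15217 genes tested, 29.1% lay higher and 29.8% lower in this sense. With the leading nucleus of each library left out, Hadhb and Acaa2 overlapped between gates, and the rest of the 9 stayed higher. Hadhb then stood at 51.8 CPM in EdU+ WT and 58.2 CPM in NeuN+ WT, and Acaa2 at 3.66 and 5.20 CPM. With the relaxed nucleus filter Acadm, Hadhb and Acaa2 overlapped between gates. Only Cpt1a was called among the 20, against 4.05% of all genes called higher and 3.0% called lower at an adjusted p of 0.05 in edgeR. The median fitted log2 difference of the 20 was 0.69, against -0.08 over all genes. A difference between gates mixes cell types, and fewer cells of a type cannot be told apart from less RNA per cell.

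The regulators split. Ppara, a fatty acid receptor that switches on oxidation genes, stood at 4.50 and 5.99 CPM in EdU+ Fasn-R1812W and WT, with no read in either NeuN+ library. Against the limit of 3 reads per library it was at least 105-fold higher in EdU+ than in NeuN+ nuclei of Fasn-R1812W mice and at least 139-fold higher in those of WT mice. Both folds rest on single nuclei: 1 of 7 nuclei held 93.9% of the EdU+ Fasn-R1812W reads, and 1 nucleus held all EdU+ WT reads. Without the leading nuclei the EdU+ levels were 0.274 CPM in Fasn-R1812W and 0 in WT. Its fitted difference did not pass in edgeR (adjusted p = 0.255). Ppard, the broadly expressed receptor of that family, stood at 13.2 and 4.86 CPM in EdU+ Fasn-R1812W and WT, against 3.11 and 3.31 CPM in NeuN+ Fasn-R1812W and WT. Ppargc1a, a coactivator of mitochondrial genes, was lower in both EdU+ libraries. It stood at 49.1 and 29.7 CPM in EdU+ Fasn-R1812W and WT, against 78.9 and 82.1 CPM in NeuN+ Fasn-R1812W and WT, with a fitted log2 difference of -1.11 that did not pass (adjusted p = 0.277, edgeR).

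Peroxisomal members had 1 call, in the other direction. Pex5l (ENSMUSG00000027674, minus strand, chr3:32949408-33143247) is a relative of the import receptor Pex5 and is known in neurons as an accessory subunit of HCN channels. It stood at 17.8 CPM (17.0 to 18.7) in EdU+ Fasn-R1812W and 29.6 CPM (26.9 to 32.5) in EdU+ WT. In NeuN+ Fasn-R1812W and NeuN+ WT it stood at 284 CPM (280.4 to 288) and 168 CPM (165 to 171). Its fitted log2 difference was -3.29 (adjusted p = 0.0195, edgeR), and DESeq2 gave -3.27 with a standard error of 0.504. Thinned reads were found in 23 of 348 EdU+ Fasn-R1812W and 9 of 167 EdU+ WT nuclei, against 204 of 301 NeuN+ Fasn-R1812W and 166 of 314 NeuN+ WT nuclei. With the strict nucleus filter the difference was -1.80 and did not pass (adjusted p = 1.0, edgeR). The median over all genes was -1.71 with that filter, so Pex5l did not stand apart from other genes there.

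Abcd3, Acox3 and Pex11a lay higher in both EdU+ libraries without passing in edgeR. Abcd3 stood at 200.5 and 295 CPM in EdU+ Fasn-R1812W and WT, against 92 and 93 CPM in NeuN+ Fasn-R1812W and WT. Its fitted log2 difference was 1.36 (adjusted p = 0.0728, edgeR), and DESeq2 gave 1.38 with a standard error of 0.375 and an adjusted p of 0.00185. Thinned reads of Abcd3 were found in 29.6% and 21.6% of EdU+ Fasn-R1812W and WT nuclei, against 43.5% and 41.4% of NeuN+ Fasn-R1812W and WT nuclei, which goes against the CPM. No order is read from such shares, here or for members whose shares run with the CPM. Acox3, an acyl-CoA oxidase of branched chains, stood at 70.5 and 57.5 CPM in EdU+ Fasn-R1812W and WT, against 17.2 and 19.6 CPM in NeuN+ Fasn-R1812W and WT. Its fitted difference was 1.76 (adjusted p = 0.147, edgeR, and 0.0345, DESeq2). Pex11a, a factor of peroxisome division, stood at 39.4 and 23.7 CPM in EdU+ Fasn-R1812W and WT, against 8.42 and 11.1 CPM in NeuN+ Fasn-R1812W and WT. Decr2, the peroxisomal dienoyl-CoA reductase, was lower in both EdU+ libraries, at 21.6 and 19.96 CPM in Fasn-R1812W and WT, against 46.2 and 31.5 CPM in NeuN+ Fasn-R1812W and WT. Acaa1a stood at 96.3 and 85.7 CPM in EdU+ Fasn-R1812W and WT, against 89.1 and 66.8 CPM in NeuN+ Fasn-R1812W and WT. Hsd17b4, a bifunctional enzyme of the pathway, overlapped between gates at 28.6 to 54.6 CPM. Of the 13 peroxisomal members, 5 were higher in both EdU+ libraries (Acox3, Ehhadh, Abcd2, Abcd3 and Pex11a), 3 were lower (Decr2, Pex5l and Pex6) and 5 overlapped, beside the 29.1% and 29.8% of all genes. Their median fitted log2 difference was 0.26. A single nucleus held 90.7% of the Abcd2 reads in EdU+ WT. With the leading nucleus of each library left out, Abcd2 stood at 16.6 and 2.06 CPM in EdU+ Fasn-R1812W and WT. Its NeuN+ levels were then 12.8 and 12.2 CPM in Fasn-R1812W and WT, so the gates overlapped. The rest of the 5 stayed higher in both EdU+ libraries.

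**Figure D2:**
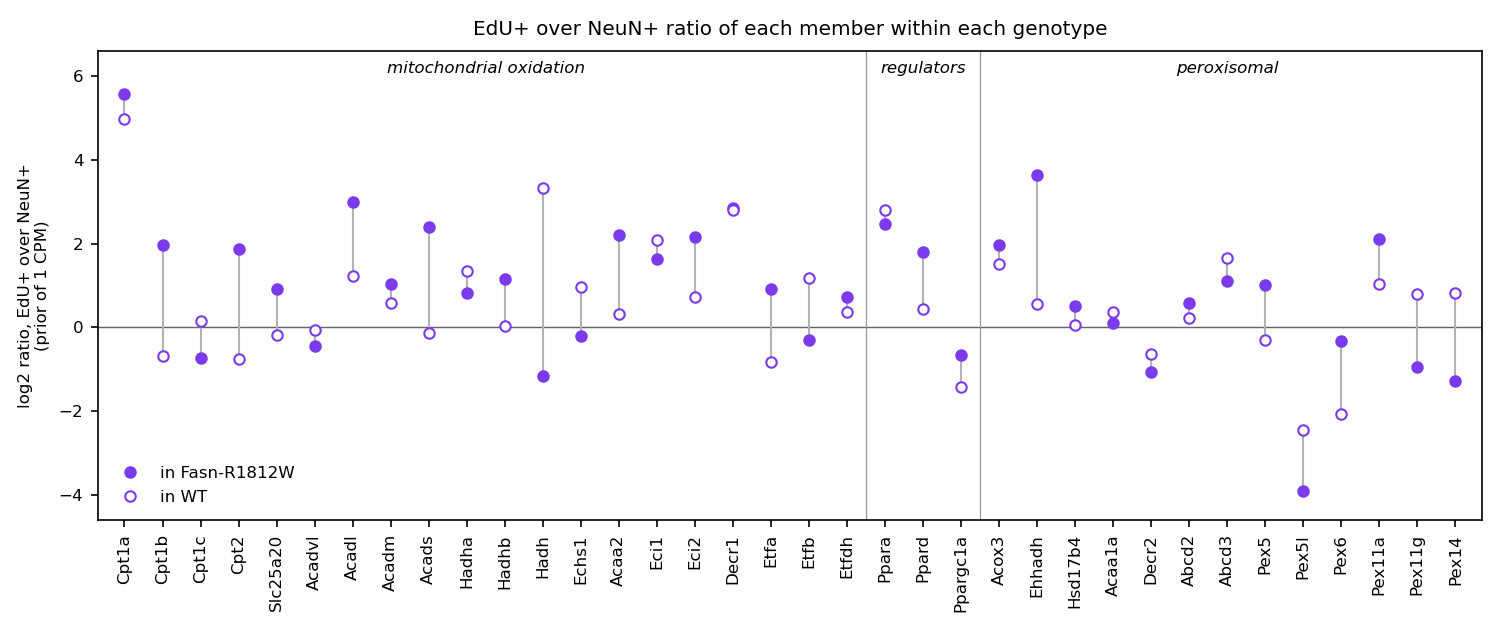
Log2 ratio of EdU+ over NeuN+ CPM after adding 1 CPM, for each member in Fasn-R1812W mice (filled) and WT mice (open). Cpt1a lies at 5.57 and 4.98 and Pex5l at -3.92 and -2.46, while members such as Hadh, at -1.16 and 3.34, change side between genotypes.

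Counts of calls rested on the EdU+ libraries. The additive fit called 2 of 36 members between gates, beside 7.06% of all genes. DESeq2 called 6, namely Cpt1a, Decr1, Ppara, Acox3, Abcd3 and Pex5l, beside 22.4% of all genes. With EdU+ WT left out 10 members were called, beside 26% of all genes, and with EdU+ Fasn-R1812W left out 11, beside 31.1%, where the lone EdU+ library is assumed to vary like the NeuN+ pair. Cpt1a was called in 15 of 15 alternatives and Pex5l in 14 of 15. Markers of glia moved with the gates: summed microglial markers stood at 3331 and 1251 CPM in EdU+ Fasn-R1812W and WT, against 135 and 85.9 CPM in NeuN+ Fasn-R1812W and WT, and summed oligodendrocyte precursor markers at 11444 and 13566 CPM, against 231 and 284 CPM. Summed astrocyte markers stood at 4199 and 4653 CPM in EdU+ Fasn-R1812W and WT, against 808 and 1902 CPM in NeuN+ Fasn-R1812W and WT. Their part in the results was not tested.

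Nuclei were next grouped into marker-defined classes, and members were followed across them. Of the kept EdU+ nuclei, 234 Fasn-R1812W and 145 WT nuclei were oligodendrocyte precursor-like, mostly from clusters 4 and 7 in Fasn-R1812W and cluster 6 in WT. Microglia-like and leukocyte-like nuclei, 46 and 24 in number, could be described in EdU+ Fasn-R1812W, while the 7 and 0 in EdU+ WT were not described. The leukocyte-like cluster also held precursor markers, with a mean log2 fold of 4.80 for that list and 5.46 for its own. NeuN+ nuclei gave granule neuron-like (80 Fasn-R1812W and 138 WT), CA1 pyramidal neuron-like (94 and 59), GABAergic interneuron-like (40 and 32) and subicular or entorhinal neuron-like (24 and 34) classes. In the last class, 8 Fasn-R1812W and 9 WT nuclei came from a weakly marked cluster. Its mean log2 fold was 0.82 for that list and 0.71 for the CA3 pyramidal neuron list. Another NeuN+ cluster, with 2.37 for the subicular or entorhinal list, stayed unnamed. Classes were made from the same transcripts, so levels by class are a description.

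Cpt1a was found in each EdU+ class described, with very uneven nuclei. Precursor-like nuclei held 71.2 CPM in EdU+ Fasn-R1812W and 53.8 CPM in EdU+ WT. A single nucleus gave 91.6% of the Fasn-R1812W reads, without which the level was 5.98 CPM, and 30.4% of the WT reads, without which it was 37.5 CPM. Microglia-like nuclei held 105 CPM with 83.4% in 1 nucleus, and leukocyte-like nuclei 109.8 CPM with 97.9% in 1 nucleus. Before thinning, reads were found in 53 of 234 precursor-like Fasn-R1812W nuclei, 10 of 46 microglia-like nuclei and 10 of 24 leukocyte-like nuclei. Among the 4 NeuN+ classes, Cpt1a was read in 1 nucleus of a class at most.

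Abcd3 stood high in precursor-like nuclei of both genotypes and lower in immune ones. It stood at 296 CPM in Fasn-R1812W and 343 CPM in WT precursor-like nuclei, with 13.7% and 12.1% of reads in the leading nucleus. In EdU+ Fasn-R1812W microglia-like nuclei it stood at 16.2 CPM and in leukocyte-like nuclei at 31.8 CPM. Acox3 was highest in another class, at 240.1 CPM in microglia-like and 1.03 CPM in leukocyte-like nuclei, against 44.7 CPM in precursor-like nuclei of that library. The leading nucleus held 31.6% of the microglia-like Acox3 reads, and 164 CPM remained without it. Cpt1c stood at 187 CPM in precursor-like nuclei of EdU+ Fasn-R1812W and 220 CPM in those of EdU+ WT, at 37.5 CPM in microglia-like nuclei and at 40.0 CPM in leukocyte-like nuclei.

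Pex5l set CA1 pyramidal neuron-like nuclei apart from the other neuron classes. It stood there at 602 CPM (591 to 613) in Fasn-R1812W and 575 CPM (561 to 589) in WT, against 144 CPM at most in the other 3 NeuN+ classes. Before thinning, reads were found in 90 of 94 Fasn-R1812W and 57 of 59 WT nuclei of the class, and the leading nucleus held 10.1% and 12.7% of them. Ppargc1a stood highest in interneuron-like nuclei, at 125 CPM (118 to 132) in Fasn-R1812W and 121 CPM (113 to 130) in WT, against at most 94.2 CPM in the other 3 classes. A single nucleus held 49.7% of its interneuron-like reads in Fasn-R1812W, and 62.9 CPM remained without it. In all, 7 of 36 members had 1 NeuN+ class above the other 3 in both libraries, beside 26.3% of the genes compared in that gate. The other 5 were Cpt1b, Pex6 and Pex14 in subicular or entorhinal neuron-like, Acads in interneuron-like and Decr1 in granule neuron-like nuclei. The place of Acads rests on 1 WT read, at 0.146 CPM, below the limit of 3 reads. Those of Decr1 and Cpt1b are also weak, since 1 nucleus held 57.9% and 55.8% of their reads in NeuN+ WT. Without that nucleus they stood at 2.49 and 0.273 CPM in the whole NeuN+ WT library.

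**Figure D3:**
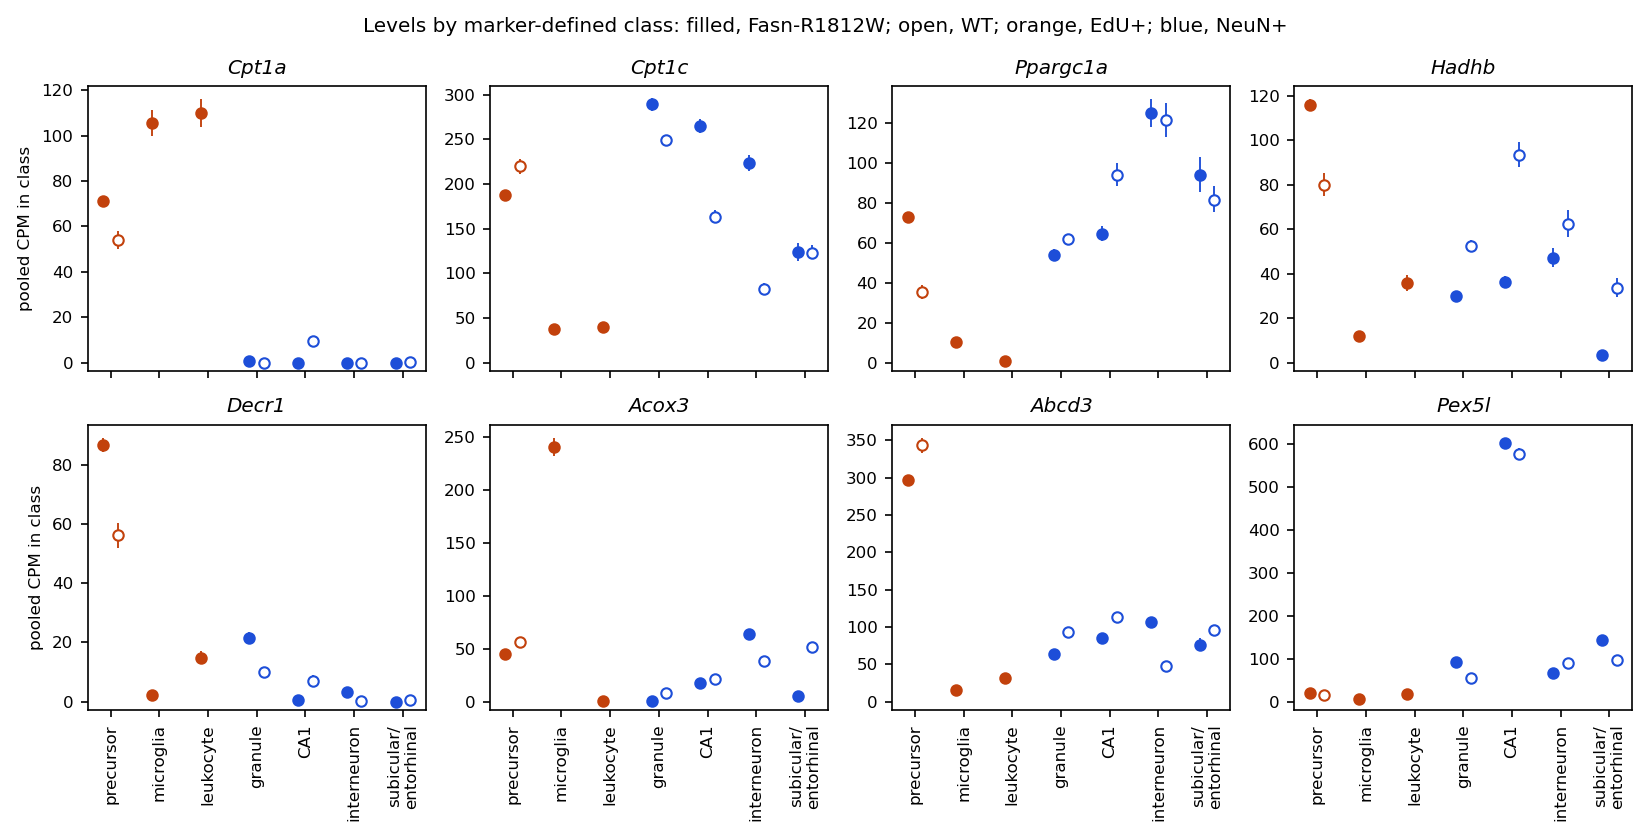
Pooled CPM of 8 members in marker-defined classes of EdU+ (orange) and NeuN+ (blue) nuclei, Fasn-R1812W filled and WT open, with exact Poisson 95% intervals. Pex5l reaches 602 and 575 CPM in CA1-like nuclei, Acox3 240.1 CPM in microglia-like nuclei and Abcd3 296 and 343 CPM in precursor-like nuclei.

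Between genotypes the additive fit over all 4 libraries called none of the 36 members, and 0 of 15217 genes, with an adjusted p under 0.05 in edgeR. At an unadjusted p under 0.05 in edgeR there were 240 genes, or 1.58%. Pex5 was the only member among them, with a fitted log2 difference of 1.48 (adjusted p = 1, edgeR quasi-likelihood test with Benjamini-Hochberg adjustment). DESeq2 called 59 genes, 49 higher and 10 lower, with no member among them, and none of the other alternatives called a member. The residual of this fit is the difference between the gates in the effect of genotype, so it can call only what both gates share. Within a gate there was 1 library per genotype and no test, and the values below describe those libraries.

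Most members were close between genotypes in NeuN+ nuclei. Of 36 members, 4 were at least 2-fold apart, 2 higher and 2 lower in Fasn-R1812W. This stands beside 6.19% of genes, 3.18% higher and 3.02% lower, at the level and detection asked of the background (10 CPM and 10% of nuclei in either library), and 23 of the 36 met that level. Of those 23, 1 was at least 2-fold apart, and 13.6% of all nuclear genes with a read were. The median log2 ratio of Fasn-R1812W over WT, taken after adding 1 CPM, was -0.12 for the 20 mitochondrial and 0.09 for the 13 peroxisomal members, against 0.02 over the background genes. Regulators stood close, with Ppargc1a at 78.9 and 82.1 CPM in Fasn-R1812W and WT and Ppard at 3.11 and 3.31 CPM.

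After adding 1 CPM, the widest NeuN+ ratio belonged to Pex11g, a factor of peroxisome division related to Pex11a. It stood at 24.3 CPM (23.2 to 25.5) in Fasn-R1812W and 5.96 CPM (5.40 to 6.56) in WT, a log2 ratio of 1.86. Thinned reads were found in 32 of 301 Fasn-R1812W nuclei (7.39% to 14.7%) and 19 of 314 WT nuclei (3.68% to 9.29%). The ratio was 1.45 to 2.01 in 8 alternatives, and 1.82 without the leading nucleus. It went the same way in the 4 NeuN+ classes, at 36.9 and 4.69 CPM in Fasn-R1812W and WT granule neuron-like, 23.0 and 0.624 CPM in CA1-like, 11.1 and 7.45 CPM in interneuron-like and 40.2 and 7.21 CPM in subicular or entorhinal neuron-like nuclei. In EdU+ nuclei it stood at 12.1 CPM in Fasn-R1812W and 11.1 CPM in WT. In CA1-like nuclei 58.0% of the Fasn-R1812W reads came from 1 of 11 nuclei, and the WT reads came from 2 nuclei. Its opposite-strand partner Gm44775 could share these reads.

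The other 3 rested on few reads or few nuclei. Cpt2 stood at 4.27 CPM in Fasn-R1812W and 0.791 CPM in WT, but 96.7% of its Fasn-R1812W reads came from 1 nucleus and the log2 ratio was 1.56 with it and 0.19 without it. Acaa2 stood at 2.79 and 7.30 CPM in Fasn-R1812W and WT, each from 10 nuclei, a ratio of -1.13 that was within 2-fold in 2 of 8 alternatives. Ehhadh, a bifunctional enzyme of peroxisomal oxidation, stood at 0.0712 CPM in Fasn-R1812W, from 5 reads, and at 2.32 CPM in WT, from 161 reads in 7 nuclei.

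Within CA1-like nuclei 11 of 20 mitochondrial members were lower in Fasn-R1812W and 7 higher, with no test. Of the 20, 8 were at least 2-fold lower and 1 was higher, beside 8.96% of genes lower and 12.3% higher, with a median log2 ratio of -0.53 against 0.04 over those genes. Hadhb stood at 36.1 and 93.5 CPM in Fasn-R1812W and WT CA1-like nuclei, Echs1, the enoyl-CoA hydratase, at 33.8 and 76.0 CPM, and Etfb at 12.7 and 28.1 CPM. The other 5 (Cpt1a, Acadl, Acaa2, Eci1 and Decr1) had under 13 CPM in both, and Cpt1a and Acaa2 were each read in 1 WT nucleus. Peroxisomal members had a median of 0.07 there, with Acaa1a at 97.8 and 27.3 CPM in Fasn-R1812W and WT. Members under the background level of the gate are included in these counts and medians, whereas the shares leave such genes out. In NeuN+ nuclei 11 of the 20 mitochondrial members met that level, among them Hadhb, Echs1 and Etfb but none of the other 5. The CA1-like log2 ratios of those 11 ran from -1.35 for Hadhb to 1.23 for Eci2. In granule neuron-like nuclei 3 mitochondrial members were at least 2-fold higher and 4 lower, beside 9.93% and 12.3% of genes. In interneuron-like nuclei 4 were higher and 6 lower, beside 18.4% and 17.8%, and in subicular or entorhinal neuron-like nuclei 5 were higher and 2 lower, beside 19.1% and 23.4%. The mitochondrial median was 0.04 in granule neuron-like, -0.18 in interneuron-like and 0.00 in subicular or entorhinal neuron-like nuclei, and the differences between classes were not tested. Peroxisomal medians were 0.68, 0.71 and 0.09 in those classes. The granule neuron-like class drew 41 of 80 Fasn-R1812W and 38 of 138 WT nuclei from a cluster that also held astrocyte markers. The mean log2 fold of that cluster was 2.02 for the astrocyte list and 2.98 for the granule neuron list. Summed astrocyte markers were lower in the NeuN+ Fasn-R1812W library, at 808 and 1902 CPM in Fasn-R1812W and WT, with 1 of 12 higher, and their part was not tested.

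In EdU+ nuclei, 12 of 36 members were at least 2-fold apart, 8 higher and 4 lower in Fasn-R1812W. The background was 25.4% of genes, 17.4% higher and 8.01% lower, and 25 members met its level. Of those 25, 5 were at least 2-fold apart, and 36.9% of all nuclear genes with a read were. That second share covers low genes too, as the 12 of 36 do. The median log2 ratio was 0.29 for the mitochondrial and 0.29 for the peroxisomal members, against 0.09 over the background genes. Setting members with no read in a library at the limit of 3 reads left the medians of both gates and of the classes the same to 2 decimals.

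Pex5 had the most reads among the 8. It stood at 121 CPM (119 to 123) in Fasn-R1812W and 27.4 CPM (24.8 to 30.2) in WT, a log2 ratio of 2.10 that, with 24.9% and 29.6% of reads in the leading nucleus, was 2.02 to 6.92 in 8 alternatives. In precursor-like nuclei it stood at 175 and 18 CPM in Fasn-R1812W and WT, with reads before thinning in 62 of 234 and 4 of 145 nuclei. Thinned over the whole gate, reads were in 43 of 348 and 6 of 167 nuclei of EdU+ Fasn-R1812W and WT. Kept EdU+ WT nuclei had a median of 1298 genes, against 3006 in EdU+ Fasn-R1812W, so no order is read from these shares. In NeuN+ nuclei Pex5 stood at 59.1 and 34.4 CPM in Fasn-R1812W and WT, a ratio of 0.77. Other import genes differed among themselves. Pex14, the docking protein, stood at 7.32 and 34.6 CPM in EdU+ Fasn-R1812W and WT, and at 19.3 and 19.1 CPM in NeuN+ Fasn-R1812W and WT. Pex6, the ATPase that recycles the receptor, stood at 33.5 and 10.2 CPM in EdU+ Fasn-R1812W and WT, a ratio of 1.63 that was -0.41 to 4.86 in 8 alternatives, and at 42.4 and 46.2 CPM in NeuN+ Fasn-R1812W and WT.

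Cpt2 and Cpt1b were higher in EdU+ Fasn-R1812W against almost no reads in WT. Cpt2 was 274-fold higher (95% counting interval 49.0 to 10813) from 1726 reads in Fasn-R1812W and 1 read in WT, and 70.6% of the Fasn-R1812W reads came from 1 nucleus of 20. Cpt1b was at least 34.3-fold higher against the limit of 3 reads in WT, from 649 reads in 8 nuclei, with 52.2% in 1 nucleus. With the relaxed nucleus filter Cpt1b stood at 7.10 and 3.71 CPM in EdU+ Fasn-R1812W and WT, within 2-fold. After adding 1 CPM, its log2 ratio was 0.78 to 6.12 in 8 alternatives, and that of Cpt2 was 2.67 to 6.78. Acads was 76.9-fold higher (13.7 to 3043), from 485 reads in 9 Fasn-R1812W nuclei and 1 WT read. A single nucleus held 78.1% of those reads, and 1.12 CPM remained without it. With the relaxed nucleus filter Acads stood at 5.06 and 1.15 CPM in EdU+ Fasn-R1812W and WT, and its log2 ratio was 1.08 to 4.97 in 8 alternatives. Acadl stood at 46.3 and 14.8 CPM in Fasn-R1812W and WT, Ppard at 13.2 and 4.86 CPM and Ehhadh at 12.3 and 3.86 CPM, with log2 ratios of 1.58, 1.28 and 1.45. The ratio of Acadl was -0.26 to 1.96 in 8 alternatives and that of Ehhadh -0.0751 to 3.79, so neither direction held throughout. That of Ppard was 0.33 to 3.89.

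Of 7 mitochondrial members lower in EdU+ Fasn-R1812W, 3 were at least 2-fold lower, namely Hadh, Etfb and Echs1. Hadh, the hydroxyacyl-CoA dehydrogenase of short chains, stood at 2.09 CPM (1.81 to 2.40) in Fasn-R1812W and 43.3 CPM (40.0 to 46.8) in WT, a log2 ratio of -3.84. Its reads came from 8 of 348 Fasn-R1812W and 7 of 167 WT nuclei, and the ratio was -6.23 to -3.36 in 8 alternatives. In precursor-like nuclei it stood at 1.47 and 30.8 CPM in Fasn-R1812W and WT. In NeuN+ nuclei it stood at 5.90 and 3.38 CPM in Fasn-R1812W and WT. Etfb stood at 18.4 and 61.8 CPM in EdU+ Fasn-R1812W and WT, a ratio of -1.69 that was -4.14 to -1.35 in the alternatives. Echs1 stood at 39.4 and 115 CPM in EdU+ Fasn-R1812W and WT, a ratio of -1.52, and was within 2-fold by the mean of CPM per nucleus.

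**Figure D4:**
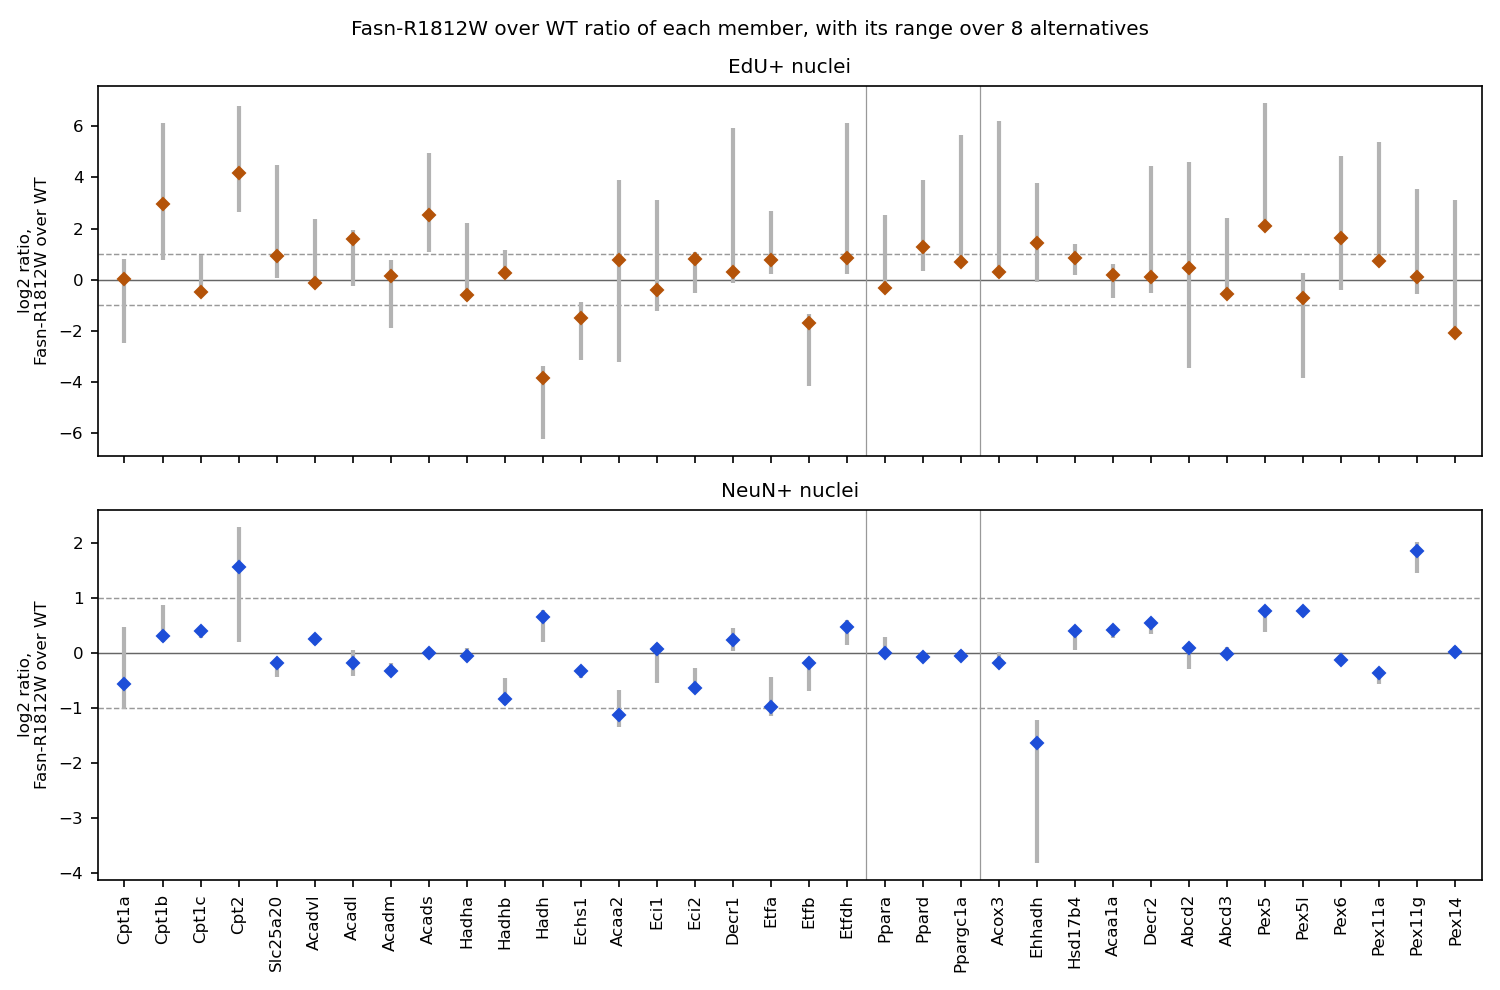
Log2 ratio of Fasn-R1812W over WT for each member in EdU+ nuclei (top) and NeuN+ nuclei (bottom), after adding 1 CPM; grey bars span 8 alternatives and dashed lines mark 2-fold. In EdU+ nuclei Pex5 lies at 2.10 and Hadh at -3.84 with bars on 1 side of 0, and in NeuN+ nuclei Pex11g lies at 1.86.

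Immune markers moved with the EdU+ comparison. Summed microglial markers stood at 3331 CPM in Fasn-R1812W and 1251 CPM in WT, with 9 of 10 higher and none at 0 in either library. Summed leukocyte markers stood at 3542 and 253 CPM in Fasn-R1812W and WT, with 12 of 12 higher and 5 at 0 in WT, the T cell receptor subunits Cd3e and Cd3g among them. Their part in the member ratios was not tested. Within precursor-like nuclei 6 mitochondrial members were at least 2-fold higher and 5 lower, and 4 peroxisomal members higher and 1 lower, beside 17.6% and 10.1% of genes. Members under the background level of the gate are included in these counts, whereas the shares leave such genes out. Of the 6, Acads stood at 1.03 CPM in Fasn-R1812W and 0 CPM in WT, Cpt1b at 6.04 and 0 CPM and Cpt2 at 29.2 and 0.0799 CPM. In this class, drawn mostly from different clusters in each genotype, the log2 ratio was 3.21 for Pex5, 4.80 for Cpt2, 1.72 for Acadl, 1.02 for Acads and -0.32 for Pex6. It was -3.69 for Hadh, -1.71 for Etfb, -1.47 for Echs1 and -1.15 for Pex14.

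Further genes of both pathways, held as lists of 20 mitochondrial and 28 peroxisomal genes, gave no call between gates. Of the 20, 18 were tested with a median log2 difference of -0.11, and of the 28, 26 were tested with -0.06, both with 0 calls in edgeR. At an unadjusted p under 0.05 there were 1 and 5 genes. Crot, the carnitine octanoyltransferase of the peroxisome, came nearest, at 133 and 72.8 CPM in EdU+ Fasn-R1812W and WT, against 16.8 and 17.1 CPM in NeuN+ Fasn-R1812W and WT (log2 difference 2.5, adjusted p = 0.0518, edgeR); it was chosen after its values were seen. Between genotypes, where 3.18% of the background genes were at least 2-fold higher and 3.02% lower in NeuN+ nuclei and 17.4% and 8.01% in EdU+ nuclei, 3 of the 20 were at least 2-fold higher and 0 lower in NeuN+ Fasn-R1812W nuclei, and 4 higher and 1 lower in EdU+ nuclei. Of the 28 peroxisomal genes, 2 were higher and 2 lower in NeuN+ nuclei, and 8 higher and 3 lower in EdU+ nuclei. These counts include genes under the background level. Among those that met it in NeuN+ nuclei, 2 of 16 mitochondrial genes were higher and 0 lower, and 1 of 20 peroxisomal genes higher and 1 lower. In EdU+ nuclei 2 of 12 mitochondrial and 3 of 15 peroxisomal genes were higher and 0 lower. Of all nuclear genes with a read, 13.6% in NeuN+ and 36.9% in EdU+ nuclei were at least 2-fold apart.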

How the data were processed

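Smart-seq2 counts of reads per gene and well were used as the authors deposited them, as whole numbers. The submitters' processing notes name Trimmomatic 0.36, STAR 2.5.3a and build GRCm38.p5. The counter, its annotation and its strand setting were not given. Symbols and positions came from GENCODE M21. Wells numbered 384 per library, against 382 nuclei stated, and no doublet caller was run.

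Counts were summed over kept nuclei. The fit of gate and genotype used edgeR 4.0.16 (quasi-likelihood test, TMM, Benjamini-Hochberg over 15217 genes with at least 10 reads in 2 libraries and 5 CPM in 1; 1 residual degree of freedom) in R 4.3.3, with DESeq2 1.42.0 and limma 3.58.1 as alternatives. It was tested on simulated data with purely additive effects and 1 dispersion for all genes. The real counts differ from this, so that test cannot show how well the p-values hold here. With 1 library per group, p-values rest on the residual of the additive fit, shared over genes, and not on replicate libraries. That residual is the difference between the gates in the effect of genotype, and it may be technical. Intervals are exact Poisson and Clopper-Pearson.

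Clustering within each gate used scanpy 1.11.5 (2000 variable genes, 20 components, 15 neighbours, Leiden resolution 1 from igraph 0.11.9). A cluster was named by the marker list with the highest mean fold when at least 3 markers were 2-fold up; clusters led by immune genes, other than microglia-like and leukocyte-like ones, and clusters whose leading genes went against the name stayed unnamed. These naming details were set after the clusters were seen. All 384 index pairs recur in every library, and 0 wells were identical between libraries.

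The members, lists and markers were chosen with earlier results of these data known. Members described in full are those at least 2-fold apart or called, and the 3 with the highest level per length in each group. Promoter windows, motif matches and the leading-nucleus check serve as description. Embryonic nuclei were not analysed here.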

Additional observations from a re-analysis of the deposited data

Results flagged for a closer look

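Ehhadh went opposite ways in the 2 gates, which drew attention to it. Its log2 ratio of Fasn-R1812W over WT was 1.454 in EdU+ nuclei and -1.631 in NeuN+ nuclei. The difference between the gates was not tested, since each gate has 1 library per genotype. The NeuN+ value rests on 5 reads in Fasn-R1812W and 161 reads in WT.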

How the results depend on the processing

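Cpt1a was called between gates in 15 of 15 alternatives and Pex5l in 14 of 15, with the strict nucleus filter the exception for Pex5l (-1.801). The number of members called between gates was 2, and became 6 with DESeq2, 4 with the relaxed nucleus filter of 300 genes and 20000 reads, 1 with the strict filter, 5 with no nucleus filter, 8 by mean CPM per nucleus in limma and 4 with gate alone in the model. Leaving out each library in turn gave 2 to 11. Without the leading nucleus of each gene, an alternative added after seeing the data, it was 3. Over all genes, calls between gates were 617 higher and 457 lower, against 1724 and 1680 with DESeq2, 1039 and 739 with the relaxed filter, 88 and 37 with the strict filter, 1108 and 821 with no nucleus filter, 1733 and 1726 in limma, 898 and 724 without the leading nucleus, 1871 and 2083 without EdU+ WT and 2016 and 2715 without EdU+ Fasn-R1812W. The strict filter moved the median over all genes to -1.71. Genotype called 0 genes, against 49 higher and 10 lower with DESeq2, 4 without the leading nucleus, and 3 higher with no filter on low genes or 2 higher and 1 lower with the strict filter.

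Among EdU+ nuclei, 12 members were at least 2-fold apart, 31 with the strict filter and 20 without the leading nucleus. The share of all genes at least 2-fold apart is not given for those settings, so the counts are not read as a trait of members. The strict filter, which left 5 WT nuclei, gave medians of 1.69 for mitochondrial and 3.57 for peroxisomal members. With that filter the additive fit had a median genotype difference of 1.69 over all 14863 genes, so such a shift was not particular to members. Directions turned for Acadl (-0.0297 strict, -0.26 unfiltered), Ehhadh (-0.0751 relaxed, -0.0196 unfiltered), Pex6 (-0.41 unfiltered) and Pex14 (3.11 strict), and the cause was not tested. Before thinning, shares of nuclei with a read were 23.0% for Cpt1a in EdU+ Fasn-R1812W, and 10.1% in EdU+ Fasn-R1812W, 74.8% in NeuN+ Fasn-R1812W and 64.3% in NeuN+ WT for Pex5l. The granule neuron-like medians were -0.28 (mitochondrial) and 0.28 (peroxisomal) with classes set by marker score. CA1-like mitochondrial medians stayed between -0.59 and -0.45. No paired analysis was possible because the labels carry no replicate numbers and each group has 1 library. Low reads per nucleus, 80771 at the median in EdU+ WT, limit members under about 10 CPM.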
